A study of Mus musculus with 3 samples.

Results

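Complement was examined through 9 genes in MC3T3-E1 cells: the proteases C1ra and C1s1, the central components C4b and C3, the protease Cfb, and the regulators Serping1, Cd55, Cd59a and Cd46. The genes were chosen by name, and all 9 were listed among the 15287 genes of the expression table. MC3T3-E1 is a wild-type preosteoblast line from mouse calvaria. RNA-seq was performed on 3 libraries, 1 per condition. The CTL library came from cells with no special treatment. The Ti library came from cells stimulated for 24 h with Ti particles, at a dose of 10 μg per square centimetre of culture. The Ti+Se-Met library came from cells that received the same particles together with 5 μM selenomethionine (Se-Met) for 24 h. The labels do not tell whether the 3 cultures were induced in osteogenic medium. The comparisons ask how Ti particles, and Se-Met added to them, went along with the expression of complement genes by bone-forming cells.

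Complement is a cascade of plasma and tissue proteins that tags particles and cells for removal. In the classical pathway, C1q binds a target and the proteases C1r and C1s are activated, after which C1s cleaves C4 and C2. The lectin pathway reaches the same step through the MASP proteases. C3 is the component on which all routes converge, and factor B forms the C3 convertase of the alternative pathway. Host cells hold the cascade back with the C1 inhibitor (Serping1) and membrane proteins such as CD55, CD46 and CD59. Although the liver makes most of the plasma proteins, fibroblasts and other mesenchymal cells also produce C1r, C1s and C3, and osteoblasts are known to make C3.

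Each value is in FPKM, the fragments of a gene scaled to transcript length and to the size of the library. FPKM are not counts, so the number of fragments was estimated from the steps of low values, which gave about 14150000 fragments in the CTL library, 14650000 with Ti and 10450000 with Ti+Se-Met. The interval given with a fold is the 95% exact binomial one, conditional on the summed fragments of both libraries. It reflects counting error alone, since no condition had a replicate and no test of the conditions was possible. A log2 difference is taken on log2(FPKM + 1), which understates the change of low genes, whereas a fold is the plain ratio of FPKM values. Genes with at least 1 FPKM in at least 1 library (11137) were kept, and a log2 difference of 1 or more is called 2-fold. Of the osteoblast markers, Col1a1 was at 1333.19, 354.2 and 481.63 FPKM (CTL, Ti and Ti+Se-Met, here and in later lists of 3 values), and Runx2 at 26.77, 17.14 and 22.97 FPKM. Spp1, the osteopontin gene, went the other way, at 1261.19, 3705.78 and 4659.49 FPKM. The late marker Ibsp was at 0, 0.04 and 0 FPKM, and Alpl was at 1.51, 0.2 and 0.2 FPKM.

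Among the 9 genes, most of the summed level came from the C1 proteases C1ra and C1s1, and both were lower with Ti particles. The summed level of the 9 genes was 370.3 FPKM in the CTL library, against 141.1 with Ti and 171.3 with Ti+Se-Met, and C1ra and C1s1 together made up 94.8%, 93.4% and 93.9% of it. C1s1, which encodes the protease that cleaves C4 and C2, was at 223.47 FPKM in the CTL library, against 64.52 with Ti and 82.16 with Ti+Se-Met. It was thus highest in CTL and lowest in Ti, with the Ti+Se-Met library nearer to Ti. Its fold was 0.289 with Ti relative to CTL (interval 0.276 to 0.302) and 0.368 with Ti+Se-Met relative to CTL (interval 0.351 to 0.385). C1ra, which encodes the protease that activates C1s, was at 127.48 FPKM in the CTL library, against 67.28 with Ti and 78.8 with Ti+Se-Met. The order of the libraries was that of C1s1, with a fold of 0.528 (interval 0.504 to 0.553) with Ti and 0.618 (interval 0.588 to 0.649) with Ti+Se-Met. In bulk RNA, fewer cells that express a gene and less RNA per cell cannot be told apart.

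**Figure D1:**
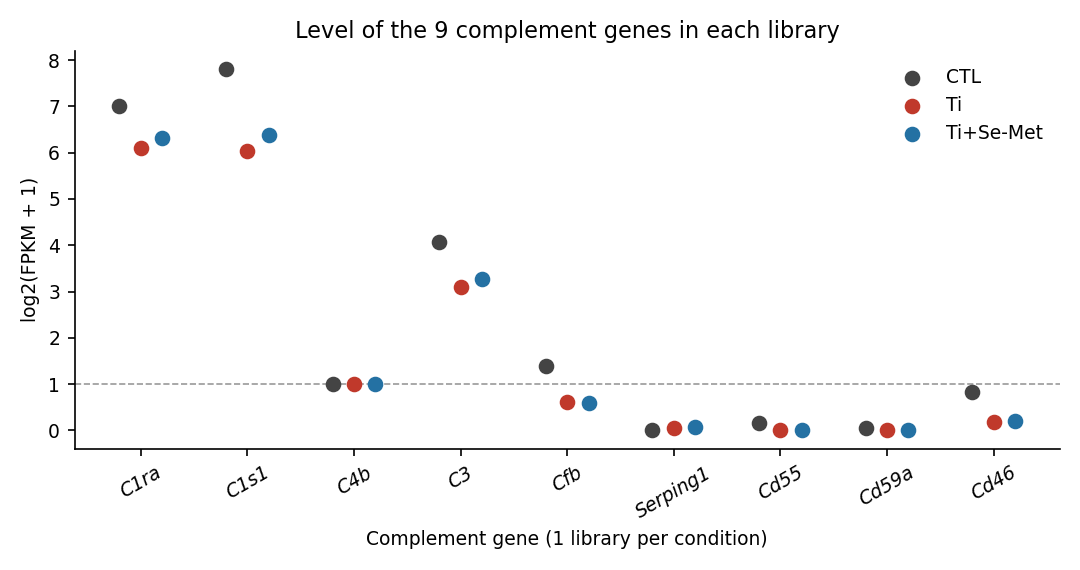
Level of each of the 9 complement genes as log2(FPKM + 1) on the vertical axis, with 1 point per library for CTL, Ti and Ti+Se-Met; the dashed line marks 1 FPKM. C1ra, C1s1 and C3 are highest in CTL, C4b is level near 1 FPKM, and Serping1, Cd55 and Cd59a lie at or near 0 in the 3 libraries.

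C1r and C1s act as partners in a single complex, and their transcripts did not keep the same ratio. Within a library the ratio of FPKM values does not depend on how libraries are scaled to each other. C1s1 was 1.75 times C1ra in the CTL library (interval 1.69 to 1.81), 0.959 times with Ti (interval 0.909 to 1.01) and 1.04 times with Ti+Se-Met (interval 0.984 to 1.10). C1s1 therefore exceeded C1ra in CTL, while both transcripts were about level in the treated libraries. The close copies of these genes, whose reads could be shared with them, were nearly silent: C1rb was at 0, 0 and 0.07 FPKM, and C1s2 at 0.17, 0.03 and 0.07 FPKM.

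C3, the component cleaved in every route of the cascade, was at 15.8 FPKM in the CTL library, against 7.62 with Ti and 8.68 with Ti+Se-Met. Both treated libraries lay near the middle between CTL and 0. The fold was 0.482 with Ti relative to CTL (interval 0.435 to 0.535) and 0.549 with Ti+Se-Met relative to CTL (interval 0.491 to 0.613). With the added 1, the log2 difference of Ti from CTL was -0.96, just short of 2-fold. C4b, whose product is cleaved by C1s and by MASP-2, was at 0.99 FPKM in the CTL library, against 1.01 with Ti and 0.99 with Ti+Se-Met. These values are level, on an estimated 73, 77 and 54 fragments, and the fold of Ti over CTL had an interval of 0.730 to 1.42. The close copy C4a, whose reads could be shared with C4b, was not analysed here. With the shortest annotated transcript of C4b, the fragments are 8 in CTL and 9 in Ti and the interval becomes 0.372 to 3.24, so a difference within that range in either direction may not be detectable at this depth. Cfb, the protease of the alternative pathway convertase, was at 1.62 FPKM in the CTL library, against 0.53 with Ti and 0.5 with Ti+Se-Met. The CTL library was the highest and both treated libraries were alike. The fold of Cfb was 0.327 with Ti relative to CTL (interval 0.187 to 0.552), on 59 and 20 estimated fragments. If the shortest annotated transcript of Cfb is taken in place of the full one, the fragments are 12 and 4 and the upper bound becomes 1.06, which includes equal levels.

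The proximal start regions of the 3 most abundant members are shown because these genes were lower together in both treated libraries. They are the 250 bases before the transcription start from RefSeq on GRCm38.p6, which held entries for 6 of the 9 genes, written 5′ to 3′ on the strand of the gene, with capitals for a match to the C/EBP letters TTGCNNAA on either strand. C1ra lies at chr6:124512371-124512620 on the plus strand, C1s1 at chr6:124542360-124542609 on the minus strand, and C3 at chr17:57228137-57228386 on the minus strand.
C1ra: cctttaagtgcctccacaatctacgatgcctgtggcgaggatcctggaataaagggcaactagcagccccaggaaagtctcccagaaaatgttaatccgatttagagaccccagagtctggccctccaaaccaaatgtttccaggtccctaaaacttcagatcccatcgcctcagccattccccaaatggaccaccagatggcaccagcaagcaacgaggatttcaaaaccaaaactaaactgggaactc
C1s1: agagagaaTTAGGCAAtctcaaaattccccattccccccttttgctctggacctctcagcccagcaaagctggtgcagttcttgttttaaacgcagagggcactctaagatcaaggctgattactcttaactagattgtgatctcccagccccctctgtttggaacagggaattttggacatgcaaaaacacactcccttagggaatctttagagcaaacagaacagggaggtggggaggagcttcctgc
C3: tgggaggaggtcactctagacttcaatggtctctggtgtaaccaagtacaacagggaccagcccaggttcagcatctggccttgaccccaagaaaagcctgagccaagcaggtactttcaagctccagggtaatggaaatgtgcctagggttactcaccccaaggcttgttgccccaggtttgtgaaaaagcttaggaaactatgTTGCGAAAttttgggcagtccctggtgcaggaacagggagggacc
The C3 match lies 45 to 38 bases before the start, and that of C1s1 242 to 235 bases before it. Such a match was found in 9.56% of 32851 start regions of the same length. The STAT letters TTCNNNGAA, which read alike on both strands, were in none of these 3 windows and in 7.02% of all start regions. A match is a description of the letters and not a binding site. A second C1s1 window, before another start farther downstream, overlaps the first. It begins past that match, and the C/EBP letters were absent from it.

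The regulators among the 9 genes were low or near 0. Cd46, which encodes a cofactor for the cleavage of C3b and C4b, was at 0.77 FPKM in the CTL library, against 0.13 with Ti and 0.16 with Ti+Se-Met. Its level in CTL was the highest, on an estimated 67 fragments against 12 and 10. Relative to CTL, its fold with Ti was 0.169 (interval 0.0852 to 0.322), and with the shortest annotated transcript the estimate fell to 8 and 1 fragments and the upper bound was 0.901. For Ti+Se-Met the upper bound with that transcript was 1.26. Cd55, which speeds the decay of convertases, was at 0.11 FPKM in CTL and listed at 0 in both treated libraries, on about 4 fragments in CTL. Cd59a, which blocks the membrane attack complex, was at 0.04 FPKM in CTL and listed at 0 in the others. Serping1, the C1 inhibitor, was listed at 0 in CTL, at 0.04 FPKM with Ti and at 0.06 FPKM with Ti+Se-Met. For Serping1 and Cd59a every value lay under the level that 3 fragments would give, between 0.127 and 0.180 FPKM, so no fold is given. For Cd55 the CTL value was only just above that level, 0.0890 FPKM, and the treated libraries at 0 allow up to 0.0859 and 0.12 FPKM.

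The genes kept and their changes can be set beside all genes. Of the 9 genes, 5 passed the filter on low values, and Cfb did so only through CTL and C4b only through Ti. Cfb thus had to be lower in both treated libraries than in CTL, and C4b had to be highest in Ti. The counts and medians below include both. In Ti against CTL, C1s1 was past 2-fold, with a log2 difference of -1.78, where 3.64% of all genes kept were 2-fold or more lower. At 1.5-fold, C1s1, C1ra, C3 and Cfb were lower among the 5 genes kept, where the share of all genes was 11.3%. The median log2 difference of the 5 genes was -0.91, and that of all genes kept 0.08. In Ti+Se-Met against CTL, C1s1 was again past 2-fold, with a log2 difference of -1.43 and 3.32% of all genes lower by as much. The same 4 genes were past 1.5-fold there, where 11.7% of all genes were, and the median of the 5 genes was -0.80 against 0.01 for all genes. Cd46 did not pass the filter and is outside these counts. Its log2 differences, -0.65 in Ti and -0.61 in Ti+Se-Met, were also past 1.5-fold. None of the 9 genes was 2-fold higher in the Ti library, where 3.63% of all genes were, or in the Ti+Se-Met library, where 2.64% were. None was 1.5-fold higher either, where the shares of all genes were 15.5% and 10.4%. The Ti and Ti+Se-Met comparisons share the CTL library, so their values are given side by side and do not count as independent.

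**Figure D2:**
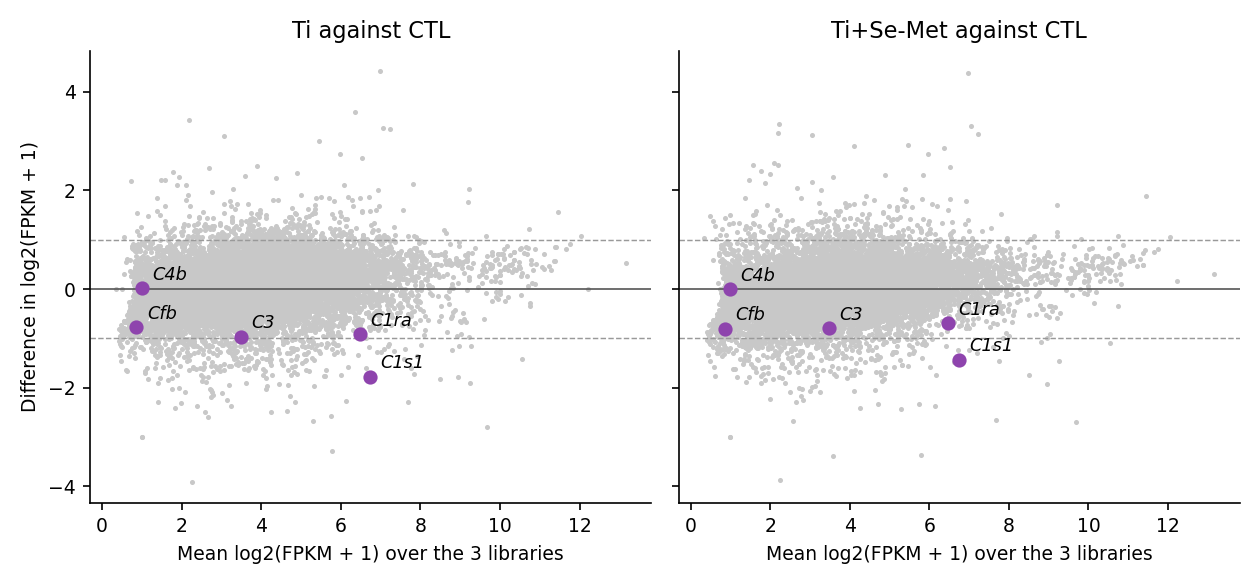
Difference in log2(FPKM + 1) from CTL on the vertical axis against the mean log2(FPKM + 1) over the 3 libraries, for Ti (left) and Ti+Se-Met (right); grey points are the 11137 genes kept, purple points are the 5 complement genes that passed the filter, and dashed lines mark 2-fold. C1s1 lies below the lower line at -1.78 and -1.43, C1ra, C3 and Cfb lie between that line and 0, and C4b lies at 0.

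Between Ti+Se-Met and Ti the differences were small. None of the 9 genes reached 2-fold, where 0.162% of all genes were higher and 0.0629% lower by as much, and none reached 1.5-fold, where 0.844% were higher and 1.28% lower. C1s1 was 1.27 times as high in Ti+Se-Met as in Ti (interval 1.20 to 1.35), C1ra 1.17 times (interval 1.11 to 1.24) and C3 1.14 times (interval 1.003 to 1.29). C1s1 and C1ra were thus somewhat higher with Se-Met beyond counting error. For C3 the lower bound lay almost at 1, and it depends on the approximate depth of the Ti+Se-Met library. All 3 genes remained below CTL. Under rescaling to the same sum, median-of-ratios scaling and upper-quartile scaling, the folds of the 3 genes stayed above 1, between 1.16 for C3 and 1.34 for C1s1. For C4b, Cfb and Cd46 the intervals, 0.681 to 1.41, 0.459 to 2.04 and 0.452 to 2.95, included equal levels.

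The other genes of the pathway were taken from a list of 51, of which 36 were listed and 12 passed the filter. Of these, Masp2, Vtn and C8g passed only through CTL, the library in which they were high, so they had to be lower in the others. Itgb2 passed only through the treated libraries, so it had to be higher there than in CTL. In Ti against CTL, 3 of the 12 were 2-fold or more lower and 0 higher, beside 3.64% and 3.63% of all genes kept. At 1.5-fold 7 were lower and 3 higher, Itgb2 among the higher, beside 11.3% and 15.5% of all genes. The median log2 difference was -0.69, and that of all genes 0.08. In Ti+Se-Met against CTL, 4 were 2-fold lower, Masp2 and Vtn among them, and 0 higher, beside 3.32% and 2.64% of all genes. The median was -0.43, and that of all genes 0.01. Between Ti+Se-Met and Ti, 0 were past 2-fold.

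Among the initiating proteases and lectins, Masp1 and Masp2 were lower in both treated libraries. Masp1, a lectin pathway protease, was at 85.11 FPKM in the CTL library, against 38.55 with Ti and 39.14 with Ti+Se-Met, with a fold of 0.453 with Ti relative to CTL (interval 0.432 to 0.475). Masp2, the lectin pathway protease that cleaves C4, was at 2.74, 0.83 and 0.58 FPKM in the same order. Unlike C1ra and C1s1, Masp1 was not higher in Ti+Se-Met than in Ti beyond counting error as deposited (fold 1.02, interval 0.955 to 1.08), although with median-of-ratios scaling the lower bound was 1.004. Colec12, a collectin scavenger receptor, was at 115.8, 69.12 and 85.58 FPKM. C1rl, a relative of C1r, was at 13.38, 10.72 and 10.75 FPKM. Of the C1q chains, C1qb was at 0.15 FPKM in CTL, on 2 estimated fragments, and at 0 in the treated libraries. C1qa and C1qc were not analysed here.

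Among the other regulators, Cr1l was higher and Vtn lower in both treated libraries. Cr1l, which encodes Crry, the membrane regulator that in rodents does the work of CD46 and CD55 in most tissues, was at 18.1, 29.82 and 24.24 FPKM. It was highest in Ti, at 1.65 times the CTL level (interval 1.45 to 1.88), and 1.40 times when the libraries were rescaled to the same sum (interval 1.24 to 1.60). Vtn, which encodes vitronectin, was at 1.6, 0.38 and 0.12 FPKM, on 36, 9 and 2 estimated fragments. The ratio of Cr1l to C3 within a library, chosen after the values were seen, needs no scaling. Cr1l was 1.15 times C3 in the CTL library (interval 1.02 to 1.29), 3.91 times with Ti (interval 3.49 to 4.39) and 2.79 times with Ti+Se-Met (interval 2.43 to 3.21).

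**Figure D3:**
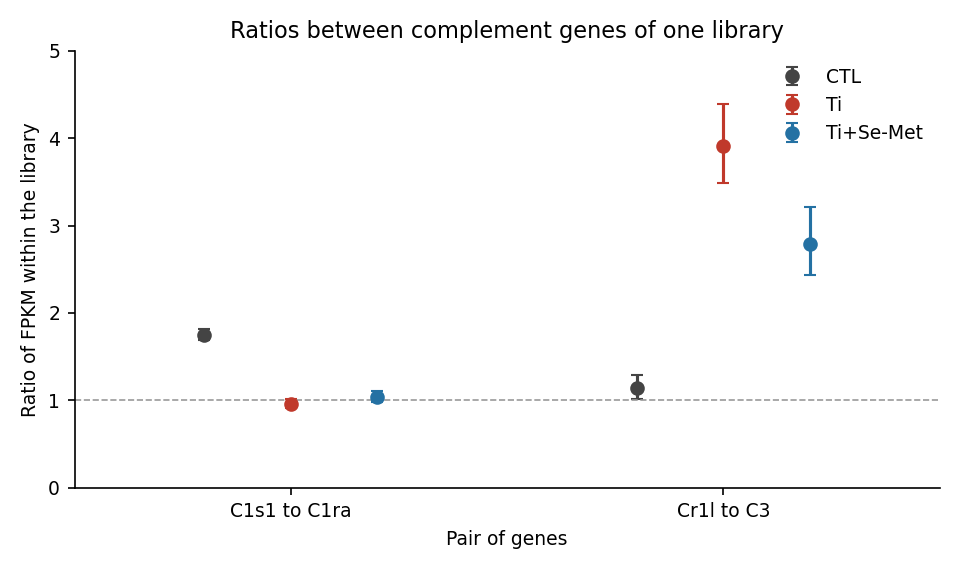
Ratio of the FPKM values of 2 genes within the same library, on a linear axis from 0, for C1s1 to C1ra and Cr1l to C3; bars are 95% counting intervals, and the dashed line marks equal levels. The C1s1 to C1ra ratio is 1.75 in CTL and near 1 in the treated libraries, and the Cr1l to C3 ratio is lowest in CTL at 1.15.

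Among receptors and binding proteins, C1qbp, a mainly mitochondrial protein that also binds C1q, was at 81.86, 160.85 and 140.04 FPKM. It was nearly 2-fold higher in Ti, with a fold of 1.96 (interval 1.83 to 2.11), and 1.67 when rescaled to the same sum. Calr, a chaperone of the endoplasmic reticulum that binds C1q at the cell surface, was at 429.33, 273.35 and 373.05 FPKM. Itgb2 was low but higher in both treated libraries, at 0.32, 1.56 and 1.34 FPKM. It passed the filter only through the treated libraries, so it had to be higher there than in CTL. Its fold with Ti relative to CTL was 4.88 (interval 2.59 to 9.41), on 64 and 13 estimated fragments. Of the anaphylatoxin receptors, C5ar1 was at 0.03, 0.17 and 0.24 FPKM, on 1, 6 and 6 estimated fragments. C5ar2 was at 0.07, 0.3 and 0.23 FPKM, on 3, 14 and 8. Of the terminal components, which form the membrane attack complex, C6, C7 and C8a did not exceed 0.03 FPKM in any library. C8g was at 1.1, 0.55 and 0.56 FPKM, on 13, 7 and 5 estimated fragments. Its interval for Ti relative to CTL, 0.176 to 1.40, included equal levels.

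**Figure D4:**
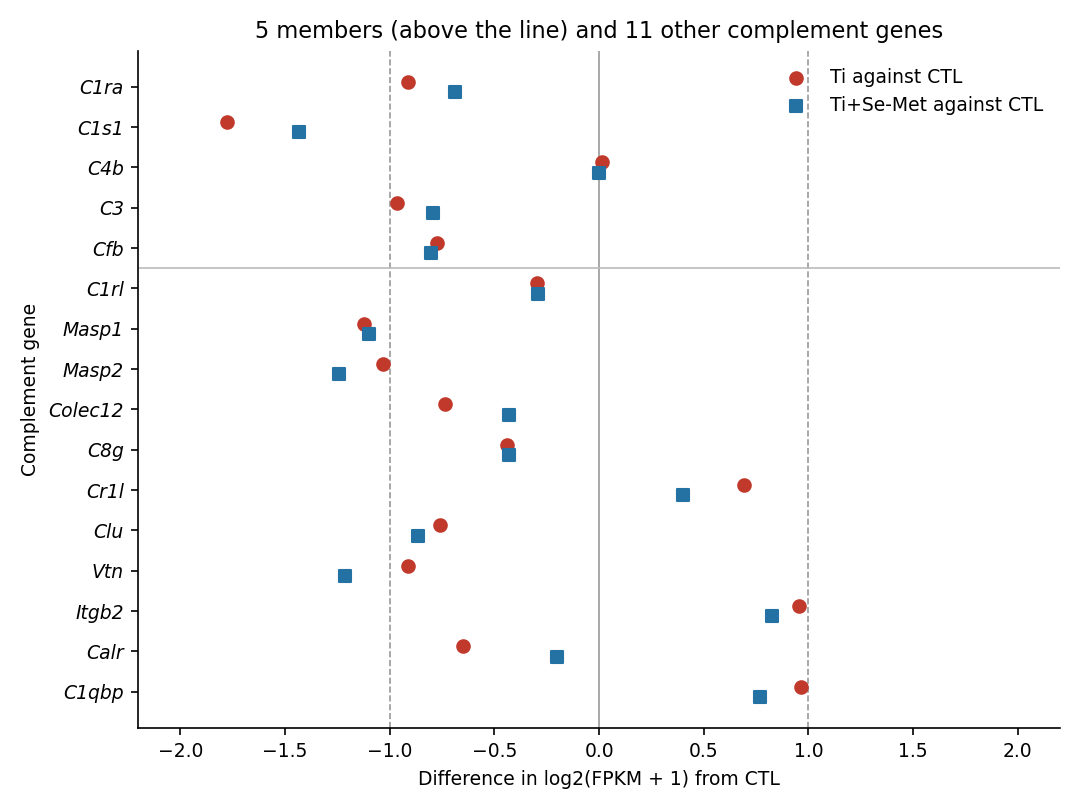
Difference in log2(FPKM + 1) from CTL for the 5 complement genes of the chosen set that passed the filter (above the grey line) and 11 other complement genes that passed it; red circles are Ti, blue squares are Ti+Se-Met, and dashed lines mark 2-fold. Most genes lie left of 0, with C1s1 (-1.78 and -1.43) farthest to the left in Ti, while Cr1l, Itgb2 and C1qbp lie to the right. Itgb2 passed the filter only through the treated libraries.

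Genes of the cytokine pathways known to raise complement genes, with acute-phase genes, were taken as a further list of 20, of which 18 passed the filter. In Ti against CTL, 5 of them were 2-fold or more higher and 1 lower, beside 3.63% and 3.64% of all genes kept, with a median log2 difference of 0.05. In Ti+Se-Met against CTL, 3 were higher and 0 lower, beside 2.64% and 3.32% of all genes. The genes higher in Ti were Cebpb (39.01, 143.71 and 120.58 FPKM), Cebpd (15.3, 37.56 and 30.93), Socs3 (16.84, 41.26 and 45.85), the oncostatin M receptor gene Osmr (10.96, 26.16 and 24.96) and Saa3, which was listed at 0 in CTL and at 1.09 and 0.51 FPKM in the others and passed the filter only through Ti. Lifr, the receptor of leukemia inhibitory factor, was lower, at 14.42, 5.73 and 6.73 FPKM. Of 2 genes for NF-kB subunits, Nfkb1 was at 29.4, 29.64 and 29.81 FPKM, and Rela was higher in the treated libraries, at 30.41, 58.97 and 52.25 FPKM, with a fold of 1.94 in Ti (interval 1.80 to 2.09). C3 and Cfb were thus low in the libraries in which Cebpb and Cebpd were high, and whether these levels are linked was not tested.

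Other cells that make complement were looked for through their markers. Of 8 macrophage markers, 5 were listed, with a summed level of 32.63, 31.76 and 27.75 FPKM. Nearly all of it was Lyz2 (26.72, 14.76 and 12.42 FPKM) and Cd14 (5.7, 16.56 and 14.81 FPKM), while Csf1r did not exceed 0.1 FPKM and Cd68 did not exceed 0.42 FPKM. Ptprc, Adgre1 and Tyrobp were not analysed here. Of 5 hepatocyte markers 1 was listed, Alb, at 0, 0.04 and 0 FPKM. Endothelial and adipocyte markers summed to at most 0.24 and 0.88 FPKM. The part of Lyz2- or Cd14-expressing cells in the complement values was not tested.

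The genes whose pattern over the 3 libraries was most like that of C1s1, by distance in the pair of log2 differences from CTL among 8728 genes with a mean of at least 5 FPKM, were Cd248, Col11a1 and Calml4. Cd248, the stromal cell antigen endosialin, was at 38.82, 10.9 and 13.87 FPKM (distance 0.036). Col11a1, a fibrillar collagen gene, was at 11.23, 2.53 and 3.42 FPKM (distance 0.039). Calml4 was at 13.34, 3.45 and 4.23 FPKM (distance 0.091). The distance rests on 3 libraries and is a description.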

How the data were processed

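RNA-seq of MC3T3-E1 cells was analyzed in 3 libraries, with 1 library per condition. Per the study's methods, HISAT2 alignment of reads filtered for adapters and quality was followed by HTSeq counts per gene. The authors deposited FPKM values, given to 2 decimals. The submitters' processing notes also name StringTie, SAMtools and the build mm9. Which tool gave the FPKM is not given in the sources used here, nor is any scaling between libraries. GRCm38 annotations served for transcript lengths and start regions only.

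Fragments were estimated from the steps of low values (0.15 to 1.5 FPKM) in 453 genes with 1 transcript of 350 to 1000 bases in GENCODE M21, less 150 bases. In CTL, 34.5% of 84 values lay on a step, against 7.62% by chance (Ti, 26.7% against 7.88%; Ti+Se-Met, 20.0% against 5.40%), so the depths are approximate. Settings that scored nearly as well gave 14050000 to 14850000 fragments for CTL, 13800000 to 16400000 for Ti and 8500000 to 11850000 for Ti+Se-Met. For the fragments of a gene, the median length of its transcripts matched by RefSeq accession was used. Calculations used scipy 1.17.1, pandas 2.3.3 and numpy 2.4.6 under Python 3.11.15, and the steps were tested on simulated data. The 95% intervals treat the fragments as whole numbers.

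Named genes are the 9 genes, their close copies, other complement genes past 2-fold or with at least 5 FPKM in a library, listed markers and inducers, and the 3 genes nearest to each of the 9 that was past 2-fold against CTL. C1qb, C6, C7, C8a, C8g, C5ar1, C5ar2 and Itgb2 fall outside this rule and were chosen after their values were seen, as were the motifs and the ratios within a library. Some genes of the lists are counted but not reported here by name. The genes and lists were chosen with earlier results of these data known. The alternatives were pseudocounts, filters, thresholds and scalings. Each scaling was set relative to CTL, so that rescaling to the same sum (TPM) keeps the CTL values.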

Additional observations from a re-analysis of the deposited data

How the results depend on the processing

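No paired analysis was possible because there was only 1 library per condition, and none could be left out. C1s1, C1ra, C3 and Cfb were below CTL in both treated libraries under all scalings, filters and pseudocounts that kept them, and no difference changed sign past 2-fold. The numbers past 2-fold depended on the setting. In Ti against CTL, 1 of the 5 genes kept became 3 with a pseudocount of 0.1, with TPM and with upper-quartile scaling. The number became 2 with the median of ratios, 0 at 4-fold and 4 at 1.5-fold. In Ti+Se-Met against CTL, the number went from 1 to 0 at 4-fold, 4 at 1.5-fold and 2 with a pseudocount of 0.1. For the other complement genes, 3 in Ti against CTL became 0 at 4-fold, 10 at 1.5-fold and 5 with a pseudocount of 0.1. In Ti+Se-Met against CTL, 4 became 2 with a pseudocount of 5 or a mean of at least 5 FPKM, 7 at 1.5-fold and 0 at 4-fold. A pseudocount of 0.1 turned 0 into 1 for Ti+Se-Met against Ti. The median log2 difference of the chosen genes in Ti against CTL, -0.91, became -1.04 and -0.72 with pseudocounts of 0.1 and 5, -0.65 with no filter, -1.14 with TPM, -0.996 with the median of ratios and -1.01 with the upper quartile. In Ti+Se-Met against CTL, -0.80 became -0.60 with a pseudocount of 5 and -0.61 with no filter. Thresholds, filters and pseudocounts act by construction, and TPM multiplies each treated library by a single factor below 1. Of 99 single-gene values under an alternative, 83 moved by less than the counting interval, put on the log2(FPKM + 1) scale, and 16 by more. Over all genes kept, the median for Ti against CTL went from 0.08 to -0.13 with TPM. With the shortest transcript, chosen after seeing the data, the upper bounds for Cfb against CTL became 1.06 in Ti and 1.25 in Ti+Se-Met. C4b, level as deposited (0.01 in Ti against CTL), was at -0.10 with TPM. At this depth Serping1, Cd55 and Cd59a have no fold and C4b, Cfb and Cd46 wide intervals, and Ti+Se-Met is the shallowest library.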

Other observations

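The table annotates 59 genes with the KEGG term for complement and coagulation cascades, and 29 of them are in none of the complement lists. These are clotting, fibrinolysis and kinin genes, taken up after the data were seen, and 14 passed the filter. In both treated libraries 5 of the 14 were 2-fold or more above CTL and 0 below, beside 3.63% and 3.64% of all genes kept in Ti and 2.64% and 3.32% in Ti+Se-Met. The median log2 difference was 0.57 for Ti and 0.46 for Ti+Se-Met, beside 0.08 and 0.01 for all genes. Both bradykinin receptors were higher: Bdkrb2 was at 2.82, 14.56 and 14.38 FPKM (CTL, Ti and Ti+Se-Met), and Bdkrb1 at 1.05, 6.18 and 4.45 FPKM. Plaur, the urokinase receptor gene, was at 5.95, 19.06 and 22.25 FPKM. Thbd, which encodes thrombomodulin, was at 41.61, 90.28 and 58.44 FPKM, and the protein C receptor gene Procr at 6.39, 14.22 and 9.55 FPKM, so that both were highest in Ti. The kininogen gene Kng2 was instead highest in Ti+Se-Met, at 0.19, 1.06 and 1.99 FPKM. Kng2 passed the filter only through the treated libraries, so it had to be higher there than in CTL. It counts among the genes past 2-fold in Ti+Se-Met and not among those in Ti. Other genes were lower: the protein S gene Pros1 was at 41.18, 25.32 and 26.03 FPKM, Tfpi, the tissue factor pathway inhibitor gene, at 38.9, 29.56 and 23.58 FPKM, and the factor VIII gene F8, which passed the filter only through CTL, at 1.75, 0.63 and 0.56 FPKM. None of these differences has a replicate check.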
